A study of Homo sapiens with 16 samples.

Results

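The collagen chain genes were followed through 4 groups of cultured colon fibroblasts. They were taken as every gene whose symbol is COL, a type number, A and a chain number, and 44 of the 40663 symbols in the table met this rule. RNA-seq had been run on 16 cultures, 4 per group, of Ccd18-Co, an established fibroblast line from human colon, so that a single cell line stood for the tissue. Cells of 3 groups had received 3 rounds of a cytokine mix (IL-17A, OSM and TNF, each at 10 ng/ml, plus IL-1B at 0.1 ng/ml), each round being 72 h without serum and then 96 h in complete medium. After 1 week these cells were exposed over 5 days to DMSO (vehicle), to belinostat at 250 nM, an inhibitor of histone deacetylases, or to GSK-J4 at 10 uM, an inhibitor of the KDM6 histone demethylases. The doses are those of the sample labels, and the study's methods text gives a lower one for IL-1B. For its assay of secreted CXCL5 the study gives a higher belinostat dose and a lower GSK-J4 dose than the labels. A supplementary legend gives that higher belinostat dose as the general one of the study, save where another is stated. The fourth group (unstimulated) is labelled as given DMSO and no cytokines. RNA was taken 2 weeks after the last exposure, so the values describe what was left by then. The comparisons asked how collagen transcripts differed after the cytokine rounds, and what each compound changed in cells that had had them. The 16 libraries held 14.42 to 19.48 M estimated counts each.

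A collagen molecule is built of chains wound into a triple helix, and each kind of chain has its own gene. Fibril-forming collagens such as types I, III and V give tissue its tensile strength, type IV forms the sheet of basement membranes, type VI forms beaded microfilaments around cells, and type VII anchors epithelium to the stroma beneath. Fibroblasts are the main source of the fibrillar and type VI chains in the gut wall, and excess collagen is a mark of intestinal fibrosis.

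The labelled cell type was checked against its markers. All 8 non-collagen fibroblast genes examined (VIM, PDGFRA, PDGFRB, THY1, DCN, LUM, FN1 and FBLN1) averaged at least 10 normalized counts in every group, normalized counts being estimated counts divided by the library's size factor. Their summed level was 333383 to 360389 with vehicle, 291981 to 345163 with belinostat and 351357 to 394472 with GSK-J4. Against vehicle, FBLN1, FN1 and PDGFRA were called lower with belinostat (log2 fold change -0.48, -0.34 and -0.255). FN1 was called higher with GSK-J4 (0.29). No other gene of this list was called in either comparison, and its part in the collagen results was not tested. In every group 1 of 5 immune markers (CD68, 257 to 301), 1 of 4 endothelial markers (VWF, 19.7 to 31.8) and 0 of 3 glial markers reached that mean. Of the 5 epithelial markers, KRT8 and KRT18 reached it in every group, and CDH1 also did with belinostat (10.7). KRT20 of the epithelial list, CD3E of the immune list, CDH5 of the endothelial list and SOX10 of the glial list had group means under 0.5. Of the 4 smooth muscle genes (DES, MYH11, ACTA2 and CNN1) the last 3 reached a mean of 10 and DES did not. The smooth muscle list summed to 14628 to 24053 normalized counts in unstimulated, 15646 to 18911 in vehicle, 10347 to 13115 in belinostat and 25212 to 26340.3 in GSK-J4 libraries. With belinostat only ACTA2 of this list was called against vehicle (log2 fold change -0.50), and MYH11 (-0.22) and CNN1 (-0.14) were not. With GSK-J4 ACTA2, MYH11 and CNN1 were all called higher (0.55, 1.11 and 0.71). The sum of the list, most of it ACTA2, moved with the compounds in the direction taken by COL6A1 and COL6A2 below. The part of this list in those results was not tested. The epithelial list (EPCAM, CDH1, KRT8, KRT18 and KRT20) summed to 1590.4 to 1947, 1539.9 to 1949, 1952 to 3449 and 1471 to 1688 in the same order, with KRT8 and KRT18 called higher in belinostat than in vehicle cells (log2 fold change 0.35 and 0.84), and its part was not tested either. In bulk RNA, fewer cells that express a gene and less RNA per cell cannot be told apart.

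Of the 44 collagen genes, 25 averaged at least 50 normalized counts over the 16 libraries and COL11A2 averaged 39.4. The other 18 were under 10: COL2A1, COL4A3, COL4A4, COL4A6, COL6A5, COL6A6, COL9A1, COL9A3, COL10A1, COL17A1, COL19A1, COL20A1, COL21A1, COL22A1, COL23A1, COL25A1, COL26A1 and COL28A1. They include the main chain of cartilage fibrils (COL2A1), the collagen of hypertrophic cartilage (COL10A1) and the hemidesmosome collagen of epithelium (COL17A1). COL6A5 had no count in any library. For a library taken alone this allows an expected count of up to 3, and for all 16 together the allowance per library is lower.

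Per kilobase of transcript, the level was highest for COL3A1, with 19260.3 normalized counts per kb over all libraries. COL1A1, the major chain of type I fibrils, followed at 17063 per kb, then the type VI chains COL6A2 at 14350 and COL6A1 at 12005 per kb. COL1A2, which pairs with COL1A1, was at 7357 and COL4A2, a basement membrane chain, at 5151 per kb. Some partners were thus unequal in level: COL1A1 stood above COL1A2, and COL6A1 and COL6A2 above COL6A3, which was at 2599 per kb. The lowest of the 25 was COL24A1, a minor fibrillar chain, at 9.67 per kb.

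**Figure D1:**
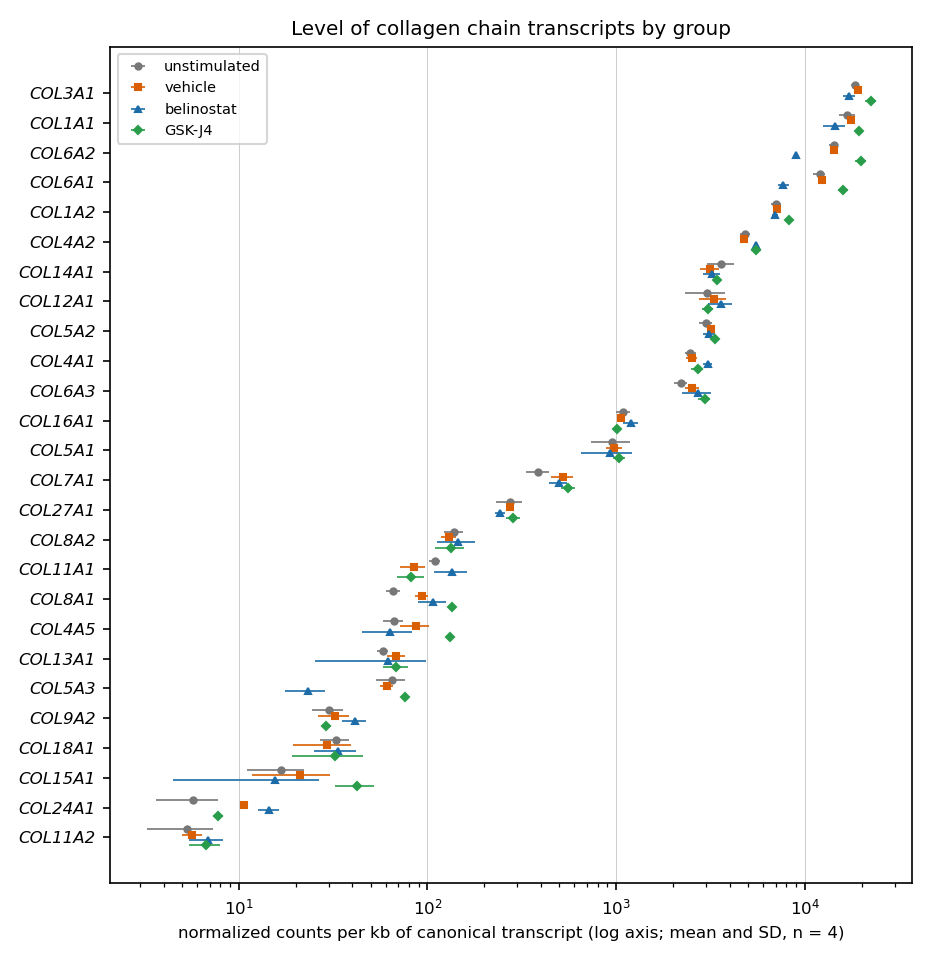
Level of the 26 collagen genes that averaged at least 10 normalized counts, in normalized counts per kb of transcript on a log axis, with group mean and SD (n = 4 libraries) for unstimulated, vehicle, belinostat and GSK-J4 cells. The genes span from COL3A1 (19260.3 per kb over all libraries) to COL11A2 (6.13 per kb), and the belinostat points of COL6A1, COL6A2 and COL5A3 lie left of the other groups.

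Together the 44 genes took 2.93% ± 0.211 of the estimated counts in unstimulated, 3.04% ± 0.0516 in vehicle, 2.72% ± 0.143 in belinostat and 3.45% ± 0.0346 in GSK-J4 cells (mean ± SD, n = 4). The single libraries ran from 2.51 to 2.84% with belinostat, from 2.97 to 3.1% with vehicle and from 3.42 to 3.5% with GSK-J4, so these 3 groups did not overlap, while the unstimulated libraries (2.64 to 3.14%) overlapped belinostat and vehicle. The belinostat mean was 0.894 times the vehicle mean, and without COL3A1, COL1A1 and COL6A1, the 3 members with the most counts (not divided by length), it was 0.978 times. For GSK-J4 the ratios were 1.13 and 1.12. These shares describe the libraries and were not tested.

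Tests on single genes used DESeq2's Wald test on the whole table, and a gene was called at an adjusted p under 0.05. Vehicle cells had 3 collagen genes called against unstimulated cells, all higher, among 33 tested, where 1.74% of all tested genes were called (1.1% higher, 0.634% lower). With belinostat 7 of 26 tested were called against vehicle (3 higher, 4 lower), where 6.26% of all tested genes were (3.12% higher, 3.13% lower). With GSK-J4 7 of 26 were called, all higher, against 1.92% of all tested genes (1.1% higher, 0.818% lower), but edgeR called 3 and DESeq2 without GSK-J4 replicate 21 called 4. Between belinostat and GSK-J4 themselves 12 of 27 were called (4 higher and 8 lower with belinostat), where 12.2% of all tested genes were (6.18% higher, 6.01% lower). Genes with few reads are rarely called, and among all genes that averaged at least 50 normalized counts the shares were 2.07, 7.17, 2.07 and 14.2% in the same order, beside 3, 7, 7 and 12 of the 25 collagen genes at that level. The median log2 fold change of the tested members was 0.06, -0.0030, 0.13 and -0.11, beside -0.0048, 0.0029, -0.0025 and 0.0034 for all tested genes. The libraries of the groups compared did not overlap in 3, 9, 10 and 14 of the tested members, and in 6.93, 11.4, 10 and 17% of all tested genes. The comparisons of both compounds use the same vehicle libraries.

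**Figure D2:**
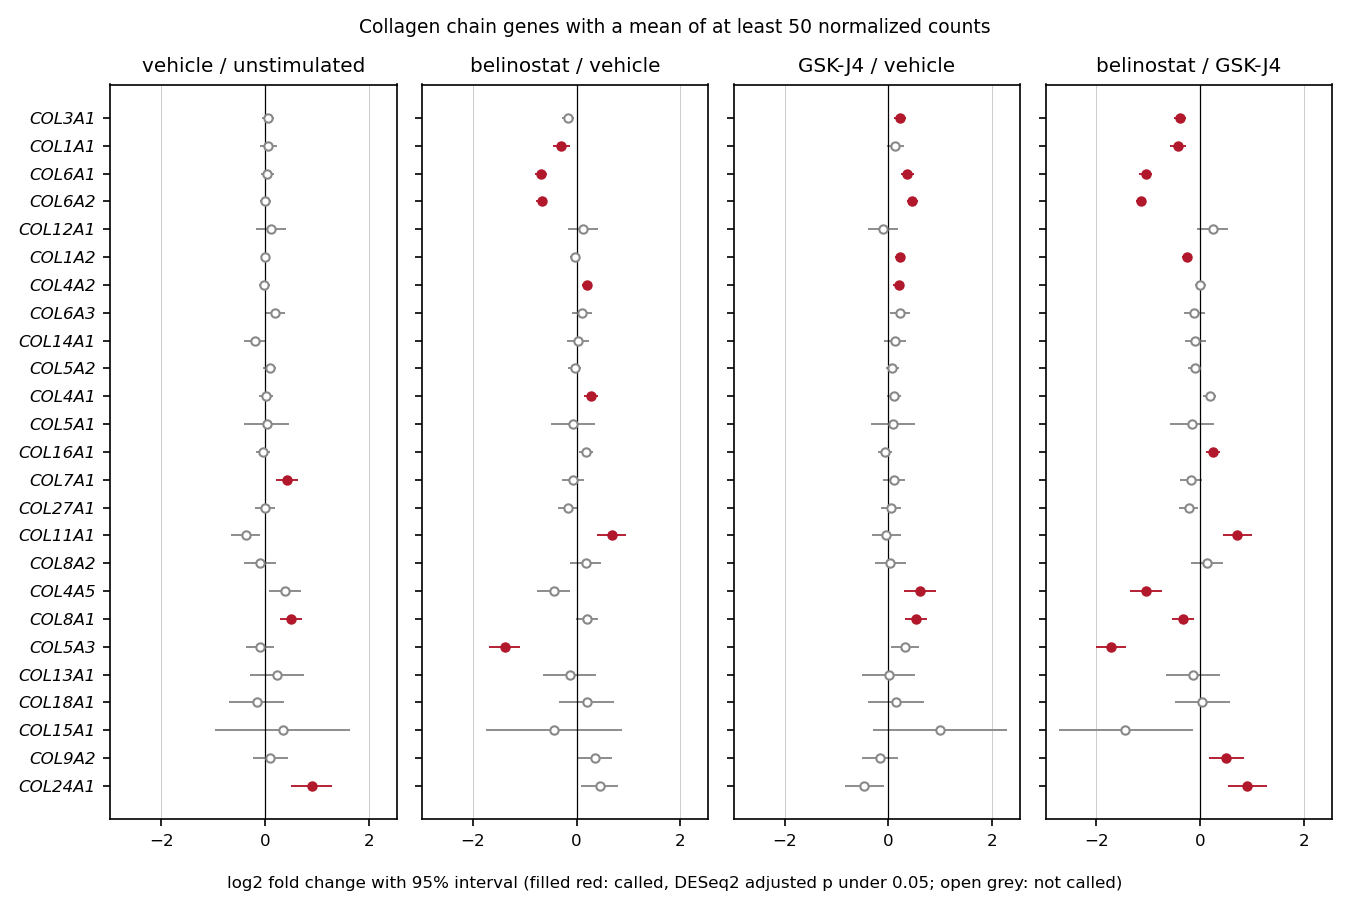
Log2 fold change with its 95% interval for the 25 collagen genes that averaged at least 50 normalized counts, ordered by abundance, in vehicle over unstimulated, belinostat over vehicle, GSK-J4 over vehicle and belinostat over GSK-J4. Filled red points are called by DESeq2 (3, 7, 7 and 12 genes), open grey points are not. COL5A3 lies farthest from 0 in the belinostat panels, at -1.39 against vehicle and -1.72 against GSK-J4.

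COL6A1 and COL6A2, which encode chains of the beaded type VI collagen, fell with belinostat and rose with GSK-J4, while COL6A3, the third and longest chain of the same molecule, was not called in either comparison. COL6A1 lies on chromosome 21 at 45981770 to 46005050 (GRCh38, plus strand), and COL6A2 follows on the same strand at 46098112 to 46132848, with 93.06 kb between them. COL6A3 is on chromosome 2, at 237324003 to 237414328 on the minus strand. The 250 bases before the RefSeq start of COL6A2 (RefSeq, GRCh38.p14, chr21:46097862-46098111, plus strand) are shown because this gene gave the smallest adjusted p of the family. Capitals mark GC boxes (GGGCGG on either strand).
COL6A2: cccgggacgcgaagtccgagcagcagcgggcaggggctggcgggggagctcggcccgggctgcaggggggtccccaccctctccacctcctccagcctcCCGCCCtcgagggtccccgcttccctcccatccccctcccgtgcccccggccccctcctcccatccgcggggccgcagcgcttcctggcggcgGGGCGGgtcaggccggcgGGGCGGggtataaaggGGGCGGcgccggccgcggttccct
The COL6A2 window held 4 GC boxes and a single TATAAA, with a GC content of 79.6%. The same window of COL6A3 held neither motif, had a GC content of 56% and in part overlaps exons of other COL6A3 transcripts. The RefSeq table gave 44 windows for 32 collagen genes, since some have several starts, and COL6A1 was not among them. A GGGCGG match was in 24 of these 44 windows (54.5%) and in 42.6% of all 35116 windows in the table, and TATAAA in 8 of 44 (18.2%) and in 10.7% of all.

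COL6A1 was measured at 45196, 51913, 50698 and 53394 normalized counts in the unstimulated libraries, at 53198, 52637, 50418 and 52071 with vehicle, at 29106, 33199, 34008 and 33047 with belinostat and at 63060, 73373, 65878 and 66147 with GSK-J4. All 4 belinostat libraries lay below, and all 4 GSK-J4 libraries above, every library of the other groups. Belinostat lowered it against vehicle by 37.9% (log2 fold change -0.69, SE 0.062, DESeq2 adjusted p = 6.87e-25), and GSK-J4 raised it by 28.9% (log2 fold change 0.37, SE 0.062, DESeq2 adjusted p = 3.58e-06). After the cytokine rounds alone it stood at 0.05 on the log2 scale, which was not called.

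COL6A2 was measured at 49766, 50575, 45223 and 51064 normalized counts in the unstimulated libraries, at 51079, 49017, 47363 and 50319 with vehicle, at 30839.7, 31241, 31608 and 29978 with belinostat and at 63981, 74633, 68016 and 66269.9 with GSK-J4. The order of the groups was that of COL6A1, again with belinostat below and GSK-J4 above all other libraries. Against vehicle it fell by 37.5% with belinostat (log2 fold change -0.68, SE 0.051, DESeq2 adjusted p = 2.69e-36) and rose by 38.0% with GSK-J4 (log2 fold change 0.46, SE 0.051, DESeq2 adjusted p = 8.28e-16). Between the compounds COL6A2 differed by -1.14 (DESeq2 adjusted p = 1.68e-105) and COL6A1 by -1.05 (DESeq2 adjusted p = 4.7e-60) on the log2 scale. All of these calls were also made by edgeR and without any single library.

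COL6A3 was measured at 25322, 22796, 21091 and 23708 normalized counts in the unstimulated libraries, at 25519, 24449, 26819.8 and 29635 with vehicle, at 36128, 27356, 25908 and 25228 with belinostat and at 33543, 32159, 28529 and 29722 with GSK-J4. Belinostat replicate 17 was the highest of all, and the other 3 belinostat libraries lay within the vehicle range. Its log2 fold change was 0.11 with belinostat (95% interval -0.091 to 0.30) and 0.22 with GSK-J4 (95% interval 0.022 to 0.42), neither called. On the compared groups alone, DESeq2 called COL6A3 higher with GSK-J4 than with vehicle (log2 fold change 0.22, adjusted p = 0.0277). The belinostat interval does not reach the values of COL6A1 and COL6A2. Against unstimulated cells COL6A3 was called higher with belinostat (log2 fold change 0.30, SE 0.10, DESeq2 adjusted p = 0.0317) and with GSK-J4 (log2 fold change 0.42, SE 0.10, DESeq2 adjusted p = 0.00175). The first of these was lost in edgeR (adjusted p = 0.0739), in DESeq2 with the compared groups alone (0.12) or with no independent filtering (0.0596), and in DESeq2 without unstimulated replicate 2 (adjusted p = 0.105), 3 (0.0897) or 4 (0.0634) and without belinostat replicate 17 (log2 fold change 0.17, adjusted p = 0.138). Without belinostat replicate 17, COL6A3 was called lower with belinostat than with GSK-J4 (log2 fold change -0.24, DESeq2 adjusted p = 0.0113, beside -0.11 with it).

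The ratio of these chains within a library restates the differences above. It was taken from the same normalized counts and is no separate support. Per kb of transcript, COL6A1 stood at 4.47 to 6.02 times COL6A3 in unstimulated, 4.4 to 5.39 in vehicle, 2.02 to 3.29 in belinostat and 4.71 to 5.79 in GSK-J4 libraries. COL6A2 stood at 6.01 to 6.78, 5.19 to 6.13, 2.61 to 3.73 and 5.83 to 7.29 times COL6A3 in the same order. In both ratios the belinostat range lay apart from the other 3, which overlapped in part. The ratio of COL6A1 to COL6A2 was 0.744 to 0.919, 0.848 to 0.88, 0.774 to 0.904 and 0.794 to 0.818, so here the belinostat range overlapped every other group. The GSK-J4 range lay below that of vehicle.

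**Figure D3:**
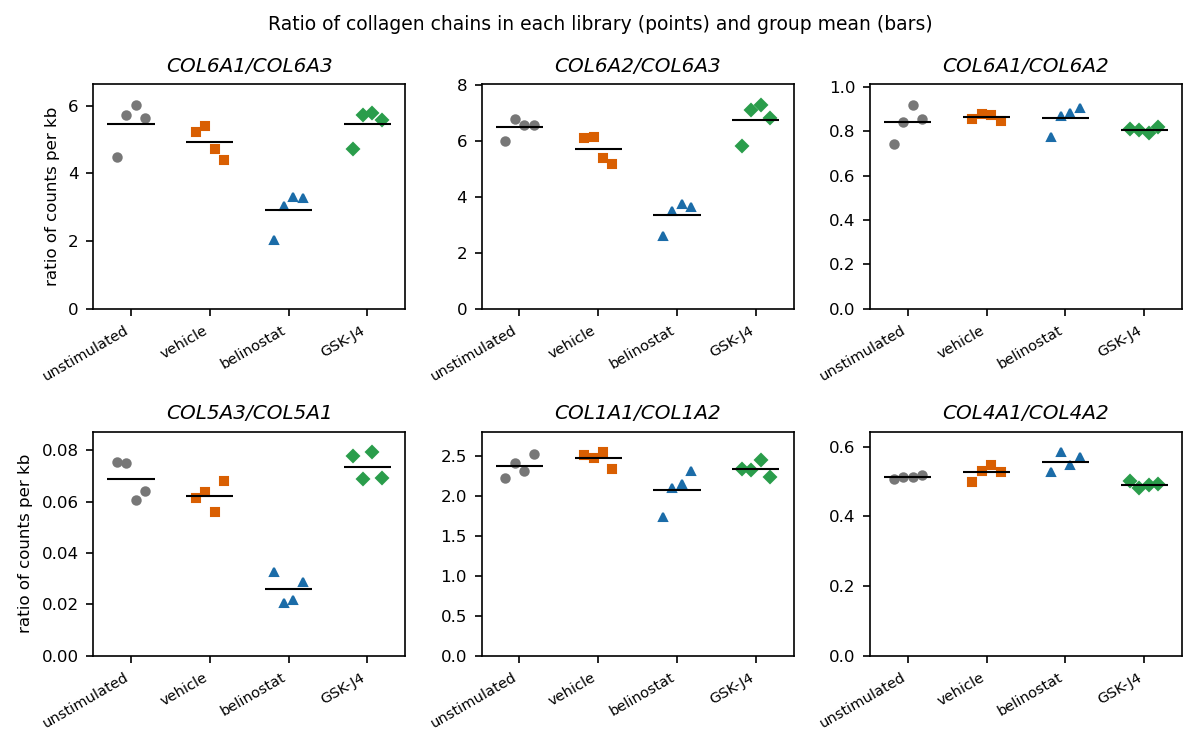
Ratio of counts per kb between chains of a collagen type in each library (points), with the group mean (bars), for unstimulated, vehicle, belinostat and GSK-J4 cells. COL6A1/COL6A3, COL6A2/COL6A3 and COL5A3/COL5A1 are low in all 4 belinostat libraries (at most 3.29, 3.73 and 0.0326), while COL6A1/COL6A2 lies between 0.744 and 0.919 throughout.

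Among the fibril-forming genes, COL5A3 had the largest fall. It encodes a minor chain of type V, the collagen that sits inside type I fibrils and sets their width, and lies on chromosome 19 at 9959561 to 10010504 (minus strand). Its upstream 250 bases (RefSeq, GRCh38.p14, chr19:10010505-10010754, minus strand) are shown for comparison with COL6A2, since both fell with belinostat. Capitals mark the GC box GGGCGG and the CCAAT box CCAAT, on either strand.
COL5A3: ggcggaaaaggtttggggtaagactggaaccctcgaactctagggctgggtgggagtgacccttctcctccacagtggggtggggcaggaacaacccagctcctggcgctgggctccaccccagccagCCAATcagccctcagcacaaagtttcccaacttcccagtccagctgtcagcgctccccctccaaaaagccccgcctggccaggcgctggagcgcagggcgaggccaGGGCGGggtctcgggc
The window held 1 of each, against 4 GC boxes and no CCAAT box before COL6A2. CCAAT was found in 12 of the 44 collagen windows (27.3%) and in 32% of all windows. TGANTCA, the AP-1 element, was in 1 of 44 (2.27%, beside 6.57% of all).

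COL5A3 was measured at 309, 461, 451 and 389.6 normalized counts in the unstimulated libraries, at 337, 408, 374 and 392 with vehicle, at 107, 149, 132 and 189 with belinostat and at 474, 458, 479.5 and 483 with GSK-J4. Every belinostat library lay below every other library, and every GSK-J4 library above every vehicle library. With belinostat it fell by 61.9% against vehicle (log2 fold change -1.39, SE 0.15, DESeq2 adjusted p = 1.87e-18). Against GSK-J4 the log2 fold change was -1.72 (DESeq2 adjusted p = 6.56e-29), and GSK-J4 against vehicle was at 0.33, not called (DESeq2 adjusted p = 0.305) except on the compared groups alone (DESeq2 adjusted p = 0.00488). The main type V chains, COL5A1 and COL5A2, were not called in any comparison in the fit over all libraries, with belinostat over vehicle at -0.068 (95% interval -0.50 to 0.36) and -0.035 (95% interval -0.16 to 0.089). COL5A1 was uneven with belinostat, at 4461 normalized counts in replicate 17 and 8219 to 9925 in the others. Per kb, and from the same counts, COL5A3 was 0.0204 to 0.0326 of COL5A1 with belinostat and 0.0559 to 0.0793 in the other groups.

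The chains of types I and III, the bulk of the fibrils, had log2 fold changes from -0.43 to 0.22 in the comparisons of each compound with vehicle and of the compounds with each other. COL3A1 (chromosome 2, 188974373 to 189012746, plus strand) was measured at 96728, 101366, 107953 and 98729.9 normalized counts in the unstimulated libraries, at 109499, 105612, 105752 and 99962 with vehicle, at 86797, 99681, 100001 and 89831 with belinostat and at 130739.6, 115372, 127389.5 and 116408 with GSK-J4. All GSK-J4 libraries were above all others, and belinostat overlapped vehicle. GSK-J4 raised it by 16.4% (log2 fold change 0.22, SE 0.059, DESeq2 adjusted p = 0.0168). This call was lost in edgeR (adjusted p = 0.171) and in DESeq2 when vehicle replicate 14 (0.0694), 15 (0.0716) or 16 (0.115) was left out, as when GSK-J4 replicate 21 (0.133) or 23 (0.122) was. Belinostat was at -0.16 against vehicle (DESeq2 adjusted p = 0.0836), called without belinostat replicate 18 (adjusted p = 0.0474) or 19 (0.0387), and at -0.38 against GSK-J4 (DESeq2 adjusted p = 7.67e-09).

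COL1A1 (chromosome 17, 50184101 to 50201632, minus strand) was measured at 85939, 101063, 104352 and 106440 normalized counts in the unstimulated libraries, at 105517, 107064, 104832 and 100116 with vehicle, at 68876, 90359.7, 89165 and 92349.8 with belinostat and at 114999, 114478, 116717 and 112312 with GSK-J4. Belinostat replicate 17 stood below the other belinostat libraries, and all 4 were below all vehicle libraries. It fell by 18.4% with belinostat (log2 fold change -0.29, SE 0.082, DESeq2 adjusted p = 0.0089), a call not made by edgeR (adjusted p = 0.0623). With GSK-J4 it was at 0.14, not called in the fit over all groups, although all 4 GSK-J4 libraries lay above every other library, and DESeq2 fitted on the compared groups alone called it (log2 fold change 0.13, adjusted p = 0.00111). COL1A2 (chromosome 7, 94394895 to 94431227, plus strand) was measured at 33106, 35777, 38511 and 36045 normalized counts in the unstimulated libraries, at 35842, 36978, 35211 and 36631 with vehicle, at 33889.9, 36917, 35632 and 34280.2 with belinostat and at 42108, 42209.6, 40839 and 43049 with GSK-J4. GSK-J4 lay above all other libraries, and the other 3 groups overlapped. COL1A2 rose with GSK-J4 (log2 fold change 0.22, SE 0.044, DESeq2 adjusted p = 0.000254), again not called by edgeR (adjusted p = 0.0696), and with belinostat was at -0.04, not called. Between the compounds, both were called lower with belinostat, COL1A1 at -0.43 and COL1A2 at -0.26 (DESeq2 adjusted p = 6.16e-06 and 2.91e-07). Per kb, COL1A1 stood at 1.74 to 2.31 times COL1A2 with belinostat and 2.23 to 2.55 times in the other groups, so these ranges overlapped.

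The 2 minor fibrillar chains COL11A1 and COL24A1 were higher with belinostat than with GSK-J4. COL11A1, best known as a cartilage chain (chromosome 1, 102876467 to 103108872, minus strand), was measured at 729, 784, 843 and 834 normalized counts in the unstimulated libraries, at 619.6, 739, 598 and 514 with vehicle, at 825, 1187, 816 and 1122 with belinostat and at 687, 538, 497 and 679 with GSK-J4. All belinostat libraries were above all vehicle and GSK-J4 libraries but overlapped the unstimulated ones. It rose by 59.8% with belinostat against vehicle (log2 fold change 0.68, SE 0.14, DESeq2 adjusted p = 9.27e-05) and was at 0.72 on the log2 scale against GSK-J4 (DESeq2 adjusted p = 1.2e-05). Against unstimulated cells belinostat was at 0.31, not called. Vehicle was at -0.37 against them, called only on the compared groups alone (DESeq2 adjusted p = 0.0359). All GSK-J4 libraries lay below all unstimulated ones, which was not called in the fit over all libraries. DESeq2 called it on the compared groups alone (log2 fold change -0.41, adjusted p = 0.00634) and with total-count scaling (0.0487). It was also called without GSK-J4 replicate 21 (0.0365) or 24 (0.0406). COL24A1 (chromosome 1, 85729233 to 86156943, minus strand) was measured at 29, 32, 59.5 and 35.1 normalized counts in the unstimulated libraries, at 76.1, 69.9, 71.7 and 74.7 with vehicle, at 104, 91.6, 86.3 and 115 with belinostat and at 48.8, 53.2, 54.9 and 55.6 with GSK-J4. Belinostat libraries were the highest and vehicle libraries came next, while unstimulated and GSK-J4 libraries overlapped below them through unstimulated replicate 3 (59.5). Without that replicate, DESeq2 called COL24A1 higher with GSK-J4 than in unstimulated cells (log2 fold change 0.73, adjusted p = 0.018). It was higher in vehicle than in unstimulated cells (log2 fold change 0.90, SE 0.20, DESeq2 adjusted p = 0.00127) and higher with belinostat than with GSK-J4 (log2 fold change 0.91, SE 0.19, DESeq2 adjusted p = 6.2e-05). Neither compound was called against vehicle for COL24A1, at 0.44 with belinostat and -0.46 with GSK-J4, although the libraries did not overlap in either case. COL27A1 and COL11A2, the remaining fibrillar genes with at least 10 counts, were called in no comparison in the fit over all libraries. COL27A1 was called lower with belinostat than with GSK-J4 on these groups alone (log2 fold change -0.23, DESeq2 adjusted p = 0.0308), and than in unstimulated cells without unstimulated replicate 1 (-0.27, adjusted p = 0.0127).

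**Figure D4:**
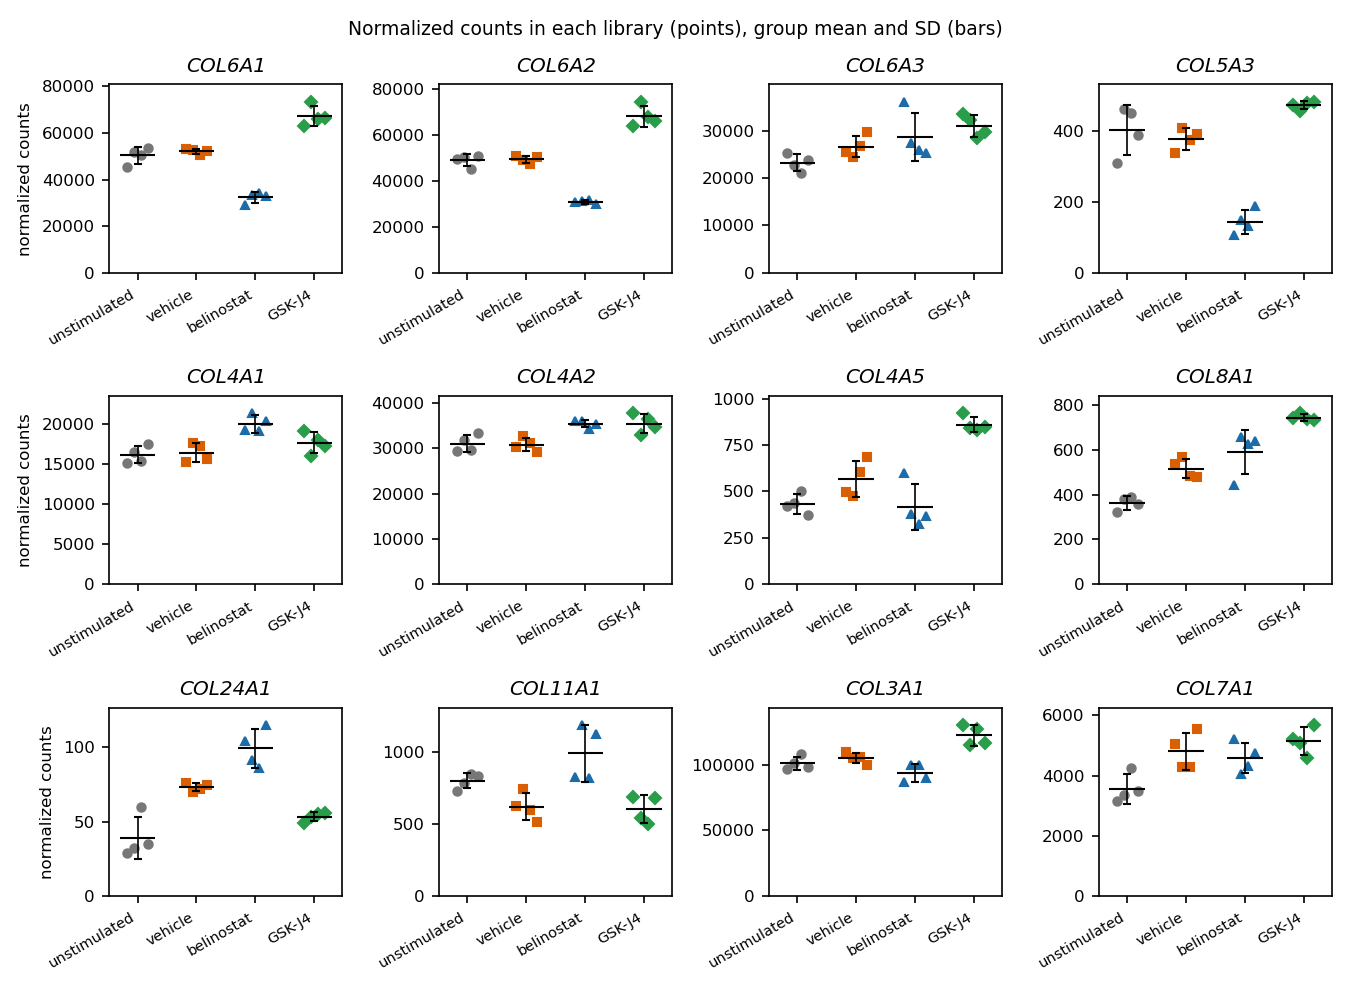
Normalized counts of 12 collagen genes in each library (points) with group mean and SD (bars; n = 4), for unstimulated, vehicle, belinostat and GSK-J4 cells. COL6A1, COL6A2 and COL5A3 are lowest in all 4 belinostat libraries, COL8A1 is highest in all 4 GSK-J4 libraries, and COL6A3 has its highest point (36128) in belinostat replicate 17.

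The basement membrane chains COL4A1 and COL4A2 wind together in a fixed pair and their genes lie head to head on chromosome 13, COL4A1 at 110148963 to 110307157 (minus strand) and COL4A2 at 110305812 to 110513209 (plus strand). Their RefSeq starts are 127 bases apart. Between them, the 100 bases up to the first annotated COL4A2 exon there (RefSeq, GRCh38.p14, chr13:110307158-110307257, plus strand) are shown. This single stretch lies before the RefSeq starts of both genes. It is within the annotated COL4A2 gene body, which begins at 110305812. Capitals mark the GC box and the CCAAT box.
COL4A1 and COL4A2: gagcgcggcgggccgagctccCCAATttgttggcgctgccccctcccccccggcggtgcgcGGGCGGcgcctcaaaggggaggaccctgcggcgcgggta
The stretch held 1 GC box and 1 CCAAT box. The annotated gene bodies overlap by 1346 bases, and whether the quantification used strand was not stated, so reads there may be split between them.

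COL4A1 was measured at 15215, 16568, 15439.5 and 17532 normalized counts in the unstimulated libraries, at 15296, 17668, 17249.9 and 15632 with vehicle, at 19219, 21388, 19119 and 20423 with belinostat and at 19197, 16067, 18069 and 17334 with GSK-J4. Belinostat libraries lay above all vehicle libraries. It rose by 21.7% with belinostat (log2 fold change 0.28, SE 0.068, DESeq2 adjusted p = 0.00111) and was at 0.10 with GSK-J4, not called. COL4A2 was measured at 29511, 31772, 29648 and 33347 normalized counts in the unstimulated libraries, at 30268, 32765, 31139 and 29169 with vehicle, at 35934, 36069, 34374 and 35402 with belinostat and at 37779, 32971, 36419.6 and 34647 with GSK-J4. Both compounds lay above all vehicle libraries. COL4A2 rose by 14.9% with belinostat (log2 fold change 0.20, SE 0.053, DESeq2 adjusted p = 0.00451) and by 15.0% with GSK-J4 (log2 fold change 0.20, SE 0.053, DESeq2 adjusted p = 0.0134). The GSK-J4 call was lost in edgeR (adjusted p = 0.137) and in DESeq2 when vehicle replicate 13 (0.0728), 15 (0.0576) or 16 (0.102) was left out, as when GSK-J4 replicate 21 (0.114) or 23 (0.0954) was. Between the compounds COL4A2 was at -0.0004 (95% interval -0.10 to 0.10) and COL4A1 at 0.18 (95% interval 0.049 to 0.31), neither called. COL4A1 was called there by DESeq2 with total-count scaling (adjusted p = 0.0282), after the filter at a mean of 10 counts (0.049), and without belinostat replicate 17 (0.0362) or GSK-J4 replicate 21 (0.0193). The ratio of COL4A1 to COL4A2 per kb was 0.508 to 0.518 in unstimulated, 0.498 to 0.546 in vehicle, 0.527 to 0.584 in belinostat and 0.48 to 0.501 in GSK-J4 libraries. The belinostat range thus overlapped that of vehicle only.

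COL4A5, the X-linked basement membrane chain altered in Alport syndrome (chromosome X, 108439838 to 108697545, plus strand), was measured at 421, 436, 502 and 374 normalized counts in the unstimulated libraries, at 499.7, 474, 605 and 683 with vehicle, at 598, 376, 325 and 365 with belinostat and at 921, 841, 828 and 849 with GSK-J4. All GSK-J4 libraries were above all others, and belinostat overlapped vehicle through replicate 17. It rose with GSK-J4 (log2 fold change 0.60, SE 0.16, DESeq2 adjusted p = 0.0125) and was lower with belinostat than with GSK-J4 (log2 fold change -1.05, SE 0.16, DESeq2 adjusted p = 3.54e-09). The GSK-J4 call was lost in edgeR (adjusted p = 0.0801) and in DESeq2 when vehicle replicate 13 (0.0782) or 14 (0.0997) was left out, as when GSK-J4 replicate 21 (0.0786) or 22 (0.051) was. The belinostat difference from vehicle was -0.44, not called, and was called by DESeq2 without belinostat replicate 17 (log2 fold change -0.67, adjusted p = 4.05e-06) or vehicle replicate 14 (-0.52, adjusted p = 0.0477).

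COL8A1 and COL7A1 were the other genes higher in vehicle than in unstimulated cells. COL8A1 encodes a short-chain network collagen of vessel walls and of healing tissue (chromosome 3, 99638475 to 99799226, plus strand), and was measured at 322, 382, 389 and 358 normalized counts in the unstimulated libraries, at 534, 566, 484 and 477 with vehicle, at 443, 657, 624 and 638 with belinostat and at 740.4, 763, 738 and 732 with GSK-J4. Unstimulated libraries were the lowest and GSK-J4 libraries the highest, while belinostat replicate 17 lay below and the other 3 belinostat libraries above all vehicle libraries. It rose by 41.9% after the cytokine rounds (log2 fold change 0.51, SE 0.11, DESeq2 adjusted p = 0.000695) and by a further 44.2% with GSK-J4 (log2 fold change 0.53, SE 0.11, DESeq2 adjusted p = 0.000204). Belinostat stood at 0.19 against vehicle, not called, or 0.31 without replicate 17 (DESeq2 adjusted p = 0.00184). Belinostat was lower than GSK-J4 (log2 fold change -0.34, SE 0.11, DESeq2 adjusted p = 0.0178), which was lost in DESeq2 without GSK-J4 replicate 22 (adjusted p = 0.0697). GSK-J4 cells stood 105% above unstimulated cells in COL8A1 (log2 fold change 1.03, SE 0.11, DESeq2 adjusted p = 1.06e-18).

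COL7A1 (chromosome 3, 48564073 to 48595329, minus strand), the anchoring fibril collagen, which the study uses as a marker of inflammatory fibroblasts, was measured at 3143, 3338, 4263 and 3497 normalized counts in the unstimulated libraries, at 5066, 4295, 4281 and 5563 with vehicle, at 5201, 4063, 4313 and 4741 with belinostat and at 5214, 5093, 4593 and 5695 with GSK-J4. Every vehicle and GSK-J4 library was above every unstimulated library, and belinostat overlapped them. It rose by 34.8% after the cytokine rounds (log2 fold change 0.43, SE 0.11, DESeq2 adjusted p = 0.0073), a call lost in edgeR (adjusted p = 0.0666) and in DESeq2 without unstimulated replicate 2 (0.064) or vehicle replicate 13 (0.0515) or 16 (0.0913). Against vehicle COL7A1 was at -0.068 with belinostat (95% interval -0.28 to 0.14) and at 0.10 with GSK-J4 (95% interval -0.11 to 0.31), neither called. Its 250 upstream bases held 3 GC boxes.

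The fibril-associated genes COL16A1 and COL9A2 were called between the compounds and in none of the other 5 comparisons in the fit over all libraries. COL16A1, a fibril-associated chain of many connective tissues (chromosome 1, 31652263 to 31704319, minus strand), was measured at 5494, 5846, 6614 and 5715 normalized counts in the unstimulated libraries, at 5487, 6046, 5699.7 and 5771 with vehicle, at 7262, 6098, 5958 and 6689 with belinostat and at 5583, 5288, 5343 and 5692 with GSK-J4. Belinostat was above all GSK-J4 libraries and overlapped vehicle. It was 18.7% higher with belinostat than with GSK-J4 (log2 fold change 0.25, SE 0.068, DESeq2 adjusted p = 0.00409). Against vehicle belinostat was called without its replicate 19 (log2 fold change 0.22, DESeq2 adjusted p = 0.0389, beside 0.18 and 0.109 with it). COL9A2, a chain of the type IX collagen of cartilage (chromosome 1, 40300489 to 40317813, minus strand), was measured at 71.4, 73.1, 96.8 and 103 normalized counts in the unstimulated libraries, at 93.3, 68, 108 and 101 with vehicle, at 119, 94, 133 and 124 with belinostat and at 81.4, 76.8, 86.4 and 87 with GSK-J4. Belinostat libraries were above all GSK-J4 libraries and overlapped the other groups. COL9A2 was called higher with belinostat than with GSK-J4 (log2 fold change 0.51, SE 0.17, DESeq2 adjusted p = 0.0321), but 8 of 14 alternatives lost the call: no independent filtering (adjusted p = 0.0581), and DESeq2 without belinostat replicate 17 (0.0616), 19 (0.127) or 20 (0.0987) or GSK-J4 replicate 21 (0.0842), 22 (0.116), 23 (0.0645) or 24 (0.0563). COL12A1 and COL14A1, abundant chains that coat fibrils, were called in none of the 6 comparisons, COL12A1 at 0.13 with belinostat and -0.11 with GSK-J4 on the log2 scale. Without unstimulated replicate 3, COL12A1 was called higher with belinostat than in unstimulated cells (log2 fold change 0.39, DESeq2 adjusted p = 0.0424).

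The other 4 genes above 50 counts, COL8A2 (a corneal network chain), COL13A1 (a transmembrane chain), COL15A1 and COL18A1 (vessel and basement membrane chains, the latter the source of endostatin), were called in no comparison in the fit over all libraries. COL15A1 was the most uneven of them, measured at 72.4, 72.1, 130.5 and 73.2 normalized counts in the unstimulated libraries, at 72.3, 68, 169 and 132 with vehicle, at 73.5, 2.44, 121 and 129 with belinostat and at 147, 268, 242 and 224 with GSK-J4. Belinostat replicate 18 was near 0, and all GSK-J4 libraries were above all belinostat and all unstimulated libraries but overlapped vehicle. GSK-J4 over unstimulated was called on these groups alone (log2 fold change 1.34, DESeq2 adjusted p = 6.38e-07). Its log2 fold change between the compounds was -1.44 with a 95% interval of -2.73 to -0.14 (DESeq2 adjusted p = 0.158), and without belinostat replicate 18 it was called (-1.04, DESeq2 adjusted p = 0.0154). COL13A1 stood at 358 normalized counts in belinostat replicate 17 and at 110.0 to 195 in the other belinostat libraries. Without replicate 17, DESeq2 called COL13A1 lower with belinostat than with vehicle (log2 fold change -0.61, adjusted p = 0.0112) and than with GSK-J4 (-0.61, adjusted p = 0.00676).

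Against unstimulated cells, which carry neither cytokines nor compound, 9 of 26 collagen genes were called with belinostat, where 10.3% of all tested genes were (5.51% higher, 4.77% lower), and 9 of 33 with GSK-J4, where 5.55% were (3.18% higher, 2.37% lower). Among genes averaging at least 50 normalized counts, these were 9 of 25 collagen genes in each case, beside 11.4 and 6.9% of all genes at that level. The libraries did not overlap in 7 and 11 of the tested members, beside 12.3 and 11.9% of all tested genes. With GSK-J4 all 9 were higher: COL1A2, COL3A1, COL4A2, COL4A5, COL6A1, COL6A2, COL6A3, COL7A1 and COL8A1. With belinostat COL4A1, COL4A2, COL6A3, COL7A1, COL8A1 and COL24A1 were higher, and COL5A3, COL6A1 and COL6A2 lower. DESeq2 also called COL1A1 lower with TMM scaling (log2 fold change -0.23, adjusted p = 0.0448). The same held without belinostat replicate 20 (-0.26, 0.0363) or unstimulated replicate 1 (-0.29, 0.00526). COL16A1 was called higher without unstimulated replicate 3 (0.19, 0.0254). COL9A2 was called higher without belinostat replicate 18 (0.54, 0.0334) or unstimulated replicate 4 (0.55, 0.0434). COL6A1 was at -0.64 and COL6A2 at -0.67 with belinostat on the log2 scale, so both were below the level of cells that had had no cytokines. The COL7A1 call with belinostat (log2 fold change 0.36, SE 0.11, DESeq2 adjusted p = 0.0127) was lost in DESeq2 without unstimulated replicate 1 (adjusted p = 0.0753) or 2 (0.0729) or belinostat replicate 17 (0.0605) or 20 (0.0501). The COL4A2 call with GSK-J4 (log2 fold change 0.19, SE 0.053, DESeq2 adjusted p = 0.00978) was lost in edgeR (0.0746) and in DESeq2 without unstimulated replicate 3 (0.055) or GSK-J4 replicate 21 (0.0733) or 23 (0.0542).

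The machinery that makes and receives collagen was taken as 40 genes in 3 lists: 19 for modification and folding in the endoplasmic reticulum, 13 for propeptide cleavage and cross-linking outside the cell, and 8 collagen receptors. After the cytokine rounds DESeq2 called none of 38 tested, where 1.74% of all tested genes were called, and edgeR none. PLOD2 (DESeq2 adjusted p = 0.0525) and P4HA2 (0.0536) were just over the threshold. The libraries did not overlap in 10 of the 38 (9 higher), beside 6.93% of all tested genes. Of the 38, 11 had an unadjusted DESeq2 p under 0.05. The share of all tested genes under that p was not taken, so no result is drawn from the 11. With belinostat DESeq2 called 6 of 36 against vehicle, where 6.26% of all tested genes were called, and edgeR 4 (not ITGA1 or SERPINH1). Higher were PLOD2, a lysyl hydroxylase (0.31), P3H2, a prolyl 3-hydroxylase (0.29), and the receptors ITGA1 (0.31) and DDR1 (0.36), as log2 fold changes. Lower were SERPINH1, the collagen chaperone HSP47 (-0.15), and LOXL1, a lysyl oxidase (-0.46). With GSK-J4 DESeq2 called 3 of 36, where 1.92% of all tested genes were called, and edgeR 1 (LOXL3). All 3 were higher: the prolyl isomerase FKBP10 (0.20), the lysyl oxidase LOXL3 (0.34) and the integrin chain ITGB1 (0.13).

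Between the compounds DESeq2 called 16 of the 36, where 12.2% of all tested genes were called (6.18% higher, 6.01% lower with belinostat), and edgeR 12. Of the 16, 10 were lower with belinostat: P4HA2, P4HB, PLOD1, COLGALT1, SERPINH1 and FKBP10 of the folding list, PCOLCE, LOXL1 and LOXL3 of the cleavage and cross-linking list, and the receptor MRC2. The farthest apart of these was LOXL3 (-0.52 on the log2 scale, DESeq2 adjusted p = 2.14e-12). PLOD2, P3H2, COLGALT2, LOXL2, DDR1 and DDR2 were higher with belinostat, by 0.21 (LOXL2) to 0.97 (COLGALT2). The hydroxylases of lysine were thus on both sides, PLOD1 at -0.28 and PLOD2 at 0.41.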

How the data were processed

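RNA-seq was run on 16 cultures of Ccd18-Co cells, 4 in each of 4 groups taken from the sample titles. The authors quantified the reads with kallisto 0.48.0 (hg38, per the submitters' processing notes) and deposited estimated counts per gene symbol, not scaled to depth. How transcripts were summed to symbols, and whether strand was used, is not given in the sources used here. The table's columns name no agent for the unstimulated cultures, whose titles give DMSO, and were matched to them by number.

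Estimated counts were rounded and fitted over all genes with DESeq2 1.42.0 (R 4.3.3), all 16 libraries in a single model with group as the only term, median-of-ratios size factors, Wald tests, unshrunken log2 fold changes, independent filtering and Benjamini-Hochberg adjustment, with calls at an adjusted p under 0.05. All adjusted p-values are DESeq2's unless edgeR (4.0.16, quasi-likelihood) is named. In all, 6 comparisons were made. The collagen genes, gene lists and classes were chosen with earlier results of these data known. Values are printed for collagen genes with a mean of at least 50 normalized counts that were called in the comparisons with vehicle, of vehicle with unstimulated cells or between the compounds, for the 6 highest per kb, and for COL7A1. Values of other collagen genes were added after they had been seen (COL5A1, COL5A2, COL6A3, COL12A1, COL13A1 and COL15A1). Lengths are those of GENCODE canonical transcripts, and coordinates are GRCh38. Alternatives were edgeR, TMM or total-count scaling, a filter at a mean of 10 counts, no independent filtering, the compared groups alone and the omission of each library. The tests were checked on simulated data. Nothing in the labels says how the cultures of a group were separated, so p-values measure the spread between these libraries, which may be technical. Depth was 14.42 to 19.48 M estimated counts per library, so small differences in genes under 10 counts were not detectable.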

Additional observations from a re-analysis of the deposited data

Results flagged for a closer look

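The highest and lowest library of each group of 4 were compared with the rest for the 15 collagen genes named by rule and for the collagen share of counts, 64 groups in all, where chance marks about 1 in 20 groups. Of the 64, 2 were marked, a share not above that. Belinostat replicate 17 stood apart in COL1A1, with 68875.8 normalized counts beside 89165.5 to 92349.8 in the other 3 belinostat libraries, and in COL8A1, with 442.981 beside 623.565 to 656.939. The same library had the lowest COL5A1 (4461) and the highest COL6A3 (36128) and COL13A1 (358) of its group, values picked out after they had been seen. Its depth was 18.26 M estimated counts, the highest of the belinostat libraries. Without it, 10 collagen genes in place of 7 were called between belinostat and vehicle by DESeq2, with COL4A5, COL8A1 and COL13A1 added and none lost, and 14 in place of 12 between belinostat and GSK-J4, with COL4A1, COL6A3 and COL13A1 added and COL9A2 lost. The part of this library's depth or handling in its values was not tested.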

How the results depend on the processing

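Across edgeR, both other scalings, the low-count filter, no independent filtering, the compared groups alone and each library left out, 82 of 84 counts of called collagen genes stayed within 1.5 times the reported count. The exceptions were in GSK-J4 against vehicle, with 3 genes called in edgeR (COL6A1, COL6A2 and COL8A1) and 4 without GSK-J4 replicate 21, where 7 were reported. The cause was not tested. Leaving out single libraries gave 4 to 7 calls for this comparison, 7 to 10 for belinostat against vehicle, 2 to 3 for vehicle against unstimulated, 10 to 14 between the compounds, 7 to 10 for belinostat and 8 to 10 for GSK-J4 against unstimulated. In the first 4 comparisons the 15 genes named by rule made 29 calls, of which 21 held in all 14 alternatives and 0 changed sign. Of their 31 uncalled values, 8 were called in some alternative and 8 changed sign in some. Without the 3 members with the most counts, the collagen share with belinostat was 0.978 of the vehicle mean (0.894 with them) and 0.872 of the GSK-J4 mean (0.788 with them), which follows from COL1A1, COL3A1 and COL6A1 being left out. The ratios with each library left out were added after the data had been seen. No paired analysis was possible because the groups share no replicate numbers.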
